A study of Mus musculus with 2 samples.

Results

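The ADAM, ADAMTS and ADAMTSL genes of mouse pancreatic tumour stroma are described here, cell type by cell type. Members are all features whose symbol is Adam, Adamts or Adamtsl followed by digits and at most 1 letter: 57 of 31054 features, of which 33 are ADAM, 19 ADAMTS and 5 ADAMTSL genes. At least 10 CPM (a gene's unique molecular identifiers, UMIs, summed over a population and scaled to 1000000 UMIs) in a population was reached by 33 members, namely 12 ADAM, 16 ADAMTS and 5 ADAMTSL genes, and the other 24 stayed under it. The members nearest to that limit were Adam28, Adam32 and Adamts14 inside it, with highest levels of 13.5, 15.9 and 20.9 CPM, and Adamts8, Adam3 and Adam30 outside it, with 6.42, 5.90 and 5.80 CPM. Of the 24, 6 had no UMI in any kept cell.

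Both groups came from tumours of a pancreatic ductal adenocarcinoma (PDAC) allograft, grown in mice of the genotype p16-CreERT2/R26-LSL-tdTomato. In such mice an inducible Cre recombinase under p16 (Cdkn2a) control removes a stop cassette, so that a cell keeps tdTomato from then on, whatever its later p16 level. Mice were perfused with PBS, tumours were dissociated, and stromal cells were sorted as tdTomato-positive (Tom positive) or tdTomato-negative (Tom negative), giving 1 library of the 10x Genomics 3′ kit per group. The inducing agent, the time after induction, ages, the tumour line and the number of mice pooled are not given in the sources used here. The reporter transcript checked the sort: tdTomato was at 547 CPM over all cells sorted positive and 29.7 CPM over those sorted negative, and over fibroblast-like cells at 407 and 17.0 CPM. Blood endothelial-like cells stood apart, at 208 and 107 CPM, the smallest ratio among the 17 populations, and cells at 500 CPM or more made up 30 of 509 in the positive sort and 28 of 237 in the negative one.

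ADAM proteins are mostly membrane-anchored metalloproteases that cut the ectodomains of growth factors, cytokines, receptors and adhesion molecules, a process called shedding. ADAMTS proteins are secreted metalloproteases with thrombospondin repeats that process procollagens, cleave large proteoglycans or act on fibrillin microfibrils, and ADAMTSL proteins share their non-catalytic domains but lack the protease. In desmoplastic pancreatic tumours, fibroblasts lay down much of the matrix on which the secreted members act.

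What separates a protease from a protease-like member is a zinc site, which is shown because it divides the genes described below into those with and without a catalytic centre. The coding sequences are read from the GENCODE M21 transcripts (mm10) in frame, 5′ to 3′ on the coding strand, and joined across introns where a site spans 2 exons. Capitals mark the codons for the zinc-binding histidines and the catalytic glutamate, and a further marked codon where most members have glycine.
Adamts9 (chr6:92905285-92908493, minus strand, exons 8 and 9): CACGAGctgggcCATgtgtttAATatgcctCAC
Adamts1 (chr16:85799191-85799545, minus strand, exons 3 and 4): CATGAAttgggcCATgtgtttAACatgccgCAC
Adamts4 (chr1:171253210-171253915, plus strand, exons 3 and 4): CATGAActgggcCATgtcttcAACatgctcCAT
Adamts15 (chr9:30911255-30911690, minus strand, exons 2 and 3): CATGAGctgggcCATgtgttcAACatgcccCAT
Adamts5 (chr16:85878015-85887826, minus strand, exons 2 and 3): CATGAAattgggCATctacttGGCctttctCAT
Adamts2 (chr11:50775403-50776134, plus strand, exons 7 and 8): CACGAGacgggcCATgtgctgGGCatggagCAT
Adamts12 (chr15:11241529-11255564, plus strand, exons 7 and 8): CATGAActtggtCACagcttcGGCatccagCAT
Adam12 (chr7:133961158-133961190, minus strand, exon 11): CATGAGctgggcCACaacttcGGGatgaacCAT
Adam8 (chr7:139987893-139987925, minus strand, exon 11): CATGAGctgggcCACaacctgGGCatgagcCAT
Adam10 (chr9:70754296-70761585, plus strand, exons 9 and 10): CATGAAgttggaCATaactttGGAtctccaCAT
The consensus with glycine was found in 33 of the 57 members, against 69 of 21614 coding genes (0.319%), and with any codon in the glycine position in 39 members, against 96 genes (0.444%). Adamts1, Adamts4, Adamts9 and Adamts15 carried an asparagine codon there. Among the 33 measured members, 25 held the wider pattern, and the 8 without it were Adam22, Adam23, Adam32 and the 5 Adamtsl genes. A match describes letters only.

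Cells were sorted into 17 populations by clustering, named from marker lists. Clusters whose leading genes held more markers of another class than of their best one (Chil3/Cxcl3, Nos2/Mmp12 and Retnla/Ear2 myeloid cells) are called by leading genes only. They held 3904 Tom positive and 5370 Tom negative cells, of which 9 and 201 carried a barcode that the other library held too, in a way that leaves its origin in doubt. The doubted cells lay mostly in Tom negative blood endothelial-like cells (118 of 237) and lymphatic endothelial-like cells (21 of 33), whose median depths were 2151 and 1605 UMIs against 30849 and 23422 in the Tom positive library. All 8 fibroblast markers reached 50 CPM in each of the 6 fibroblast populations, 9 of 10 pericyte and smooth muscle markers did so in mural cells, and all 9 blood and all 7 lymphatic endothelial markers in theirs. The name of the dendritic-like cells is less firm. There 3 (Tom positive) and 6 (Tom negative) of 12 dendritic markers reached 50 CPM, but 8 of 11 macrophage and 6 of 9 monocyte markers in both libraries. There was 1 library per group, so no difference between groups was tested, 95% intervals (exact Poisson for levels) hold counting error only, and "higher" and "lower" mean 1.5-fold or more.

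Fibroblasts were the population with the highest level for 18 of the 33 members, against 21% of all features at 10 CPM or more. Mural cells, which wrap vessels, led for 2 members (10.9% of features), endothelial cells for 5 (28.1%) and myeloid cells for 8 (40%), out of 12426 features. Fibroblasts led for 10 of the 16 Adamts, 5 of the 12 Adam and 3 of the 5 Adamtsl genes, and myeloid cells for 6 Adam genes (Adam8, Adam9, Adam15, Adam17, Adam28 and Adam32), 2 Adamtsl genes and no Adamts gene. Summed over the 57 members, fibroblast-like cells held 3741 and 3499 CPM (Tom positive and Tom negative, the order used throughout), of which 2125 and 1958 CPM were Adamts and 1033 and 938 CPM Adam genes. Myeloid cells other than neutrophils held 1034 and 941 CPM, of which 103 and 117 CPM were Adamts and 881 and 781 CPM Adam genes. In bulk of a population such as these sums, more cells with the RNA and more RNA per cell cannot be told apart.

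**Figure D1:**
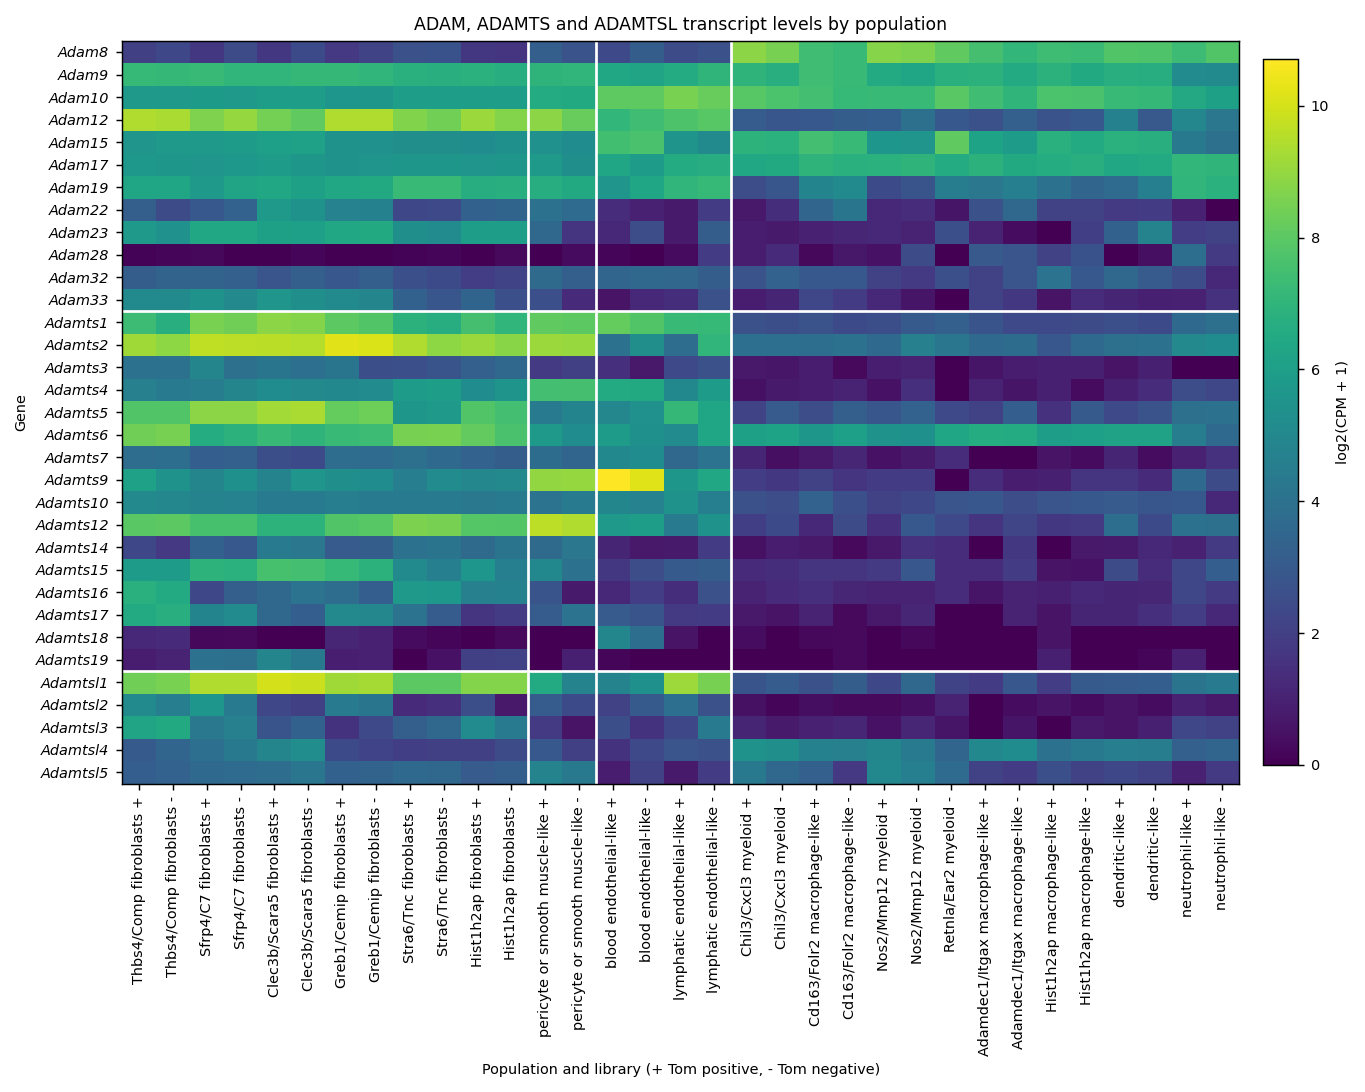
Heat map of the 33 measured members (rows) in each population of the Tom positive (+) and Tom negative (-) libraries (columns); colour gives log2(CPM + 1), white lines separate fibroblast, mural, endothelial and myeloid columns and the Adam, Adamts and Adamtsl rows, and populations under 30 cells in a library are left out. Adamts9 is brightest in blood endothelial-like cells, Adamts12 in mural cells, Adamts2 and Adamtsl1 in fibroblasts and Adam8 in myeloid cells.

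Procollagen N-propeptidases remove the amino-terminal propeptide so that collagen can form fibrils. Adamts2, the main one for types I and III, was the most abundant member of fibroblast-like cells, at 791 (784 to 798) and 642 (637 to 647) CPM. Among fibroblast clusters it was highest in Greb1/Cemip cells, at 1206 and 1101 CPM, and lowest in the Hist1h2ap cluster, at 548 and 447 CPM. Mural cells held 553 and 530 CPM. Adamts3 and Adamts14, the other 2 of this type, were minor: 16.0 and 10.7 CPM and 10.1 and 12.3 CPM in fibroblast-like cells. The collagens that these enzymes process stood far above them, with Col1a1 at 22543 and 16981 CPM and Col3a1 at 24349 and 21941 CPM in fibroblast-like cells.

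The proteoglycanases cut versican and aggrecan. Adamts5 was highest in fibroblast-like cells, at 287 and 314 CPM, and so was Adamts15, at 96.5 and 87.9 CPM. Lymphatic endothelial-like cells also held Adamts5, at 140 and 76.3 CPM, with fibroblast markers there at a median of 2.30% and 24.7% of their fibroblast level. Summed over each class, Adamts1 was shared by fibroblast-like (245 and 223 CPM), mural (271 and 254 CPM) and blood endothelial-like cells (291 and 220 CPM). Within the Tom positive library the intervals of mural and blood endothelial levels overlapped, 242 to 302 against 284 to 299 CPM. That of mural cells also reached the summed fibroblast level of 241 to 249 CPM. Single fibroblast clusters stood above these classes, with Adamts1 at 456 and 419 CPM in Clec3b/Scara5 and 371 and 330 CPM in Sfrp4/C7 cells. In Stra6/Tnc cells it was at 115 and 102 CPM. Adamts4 was highest in mural cells, at 181 and 188 CPM, followed by blood endothelial-like cells at 93.5 and 88.7 CPM, with 34.0 and 40.0 CPM in fibroblast-like cells. Versican (Vcan) itself stood at 458 and 526 CPM in fibroblast-like cells and aggrecan (Acan) at 0.970 and 1.24 CPM.

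Adamts9, a secreted protease known for versican cleavage, had the highest level of any member in any population: 1666 (1647 to 1685) and 1164 (1127 to 1203) CPM in blood endothelial-like cells. Mural cells followed at 494 and 511 CPM, with 49.8 and 81.6 CPM in lymphatic endothelial-like and 38.5 and 39.7 CPM in fibroblast-like cells. With cells thinned to 2000 UMIs, an Adamts9 UMI was found in 83.8% (80.2 to 87.0, Clopper-Pearson) of 482 Tom positive and 78.9% (70.6 to 85.7) of 123 Tom negative blood endothelial-like cells, leaving out 27 and 114 shallower ones. Without thinning the shares were 94.7% and 83.5%. In myeloid cells other than neutrophils, whose median depths were 18705 and 20401 UMIs, the thinned shares were 0.675% and 0.378%.

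Endothelial clusters at a finer setting divided the vessel genes further. Adamts18, an ADAMTS with few known substrates, stood at 48.8 (44.7 to 53.2) and 51.3 (36.8 to 69.6) CPM in a cluster with Selp, a venous adhesion molecule, among its leading genes, and at 1.51 and 0.486 CPM in a cluster with Gpihbp1, a capillary protein, and Chga among them. Adamts7, which can cleave cartilage oligomeric matrix protein (COMP), ran the other way, at 18.2 and 15 CPM against 48.7 and 45.2 CPM. Adamts9 was at 1868 and 1673 CPM in the Selp cluster and 1386 and 1014 CPM in the Gpihbp1 cluster. Adam10, a sheddase of Notch and cadherins, led in lymphatic endothelial-like cells at 377 (358 to 395) and 292 (240 to 352) CPM, and blood endothelial-like cells held 267 and 263 CPM. In the Tom negative library the intervals of the 2 endothelial types overlapped for Adam10. Adamtsl1, a protease-free relative, separated them instead, with 561 and 366 CPM in lymphatic and 26.7 and 39.8 CPM in blood endothelial-like cells. Adamts10, linked to fibrillin microfibrils, was at 43.0 and 23.7 CPM in lymphatic and 29.2 and 26.0 CPM in blood endothelial-like cells.

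**Figure D2:**
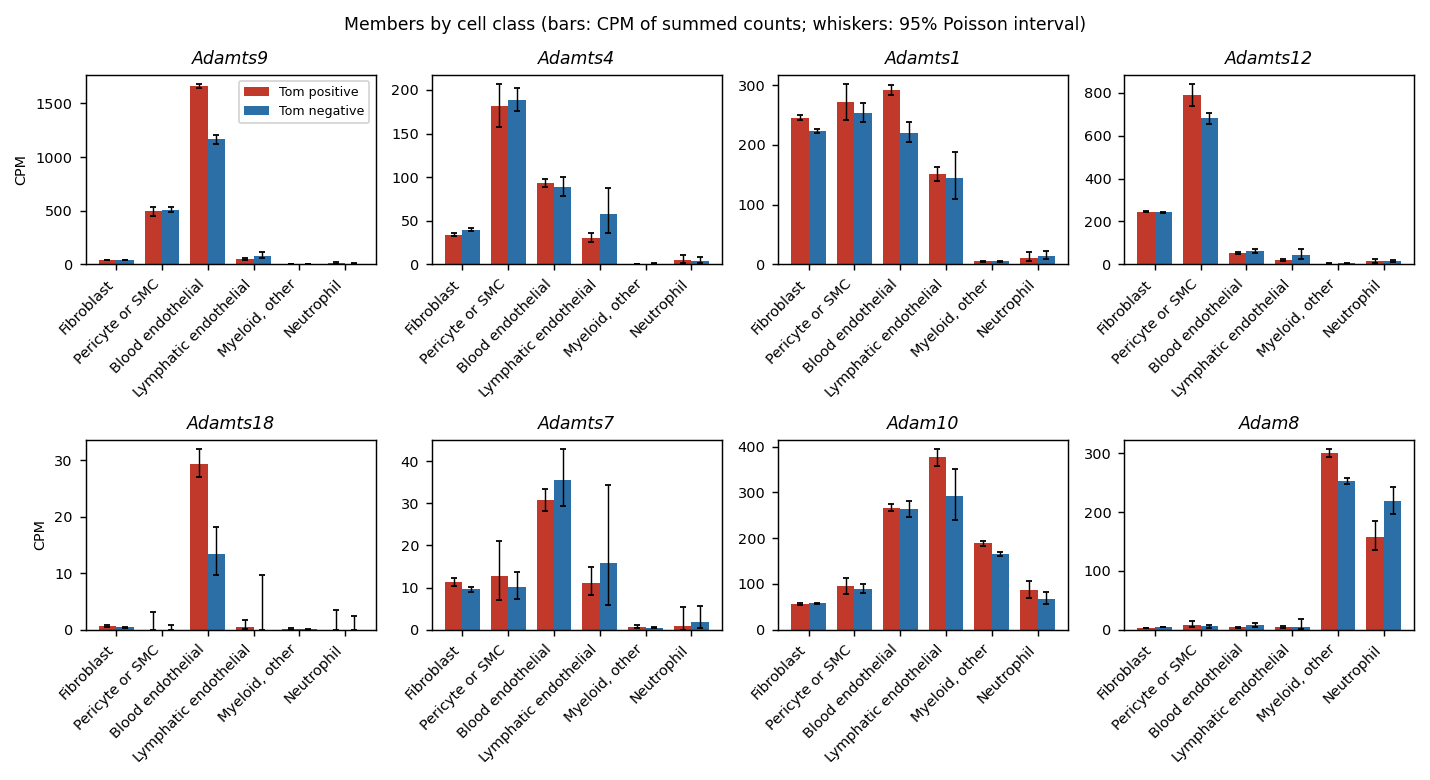
Levels of 8 members (panels) in 6 cell classes: bars are CPM of summed counts in the Tom positive and Tom negative libraries on axes from 0, and whiskers are 95% Poisson intervals. Adamts9 and Adamts18 peak in blood endothelial-like cells, Adamts4 and Adamts12 in pericyte or smooth muscle-like (SMC) cells, Adam10 in lymphatic endothelial-like cells and Adam8 in myeloid cells.

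Adamts12, the other COMP-cleaving enzyme, was the leading mural member at 790 (740 to 842) and 680 (656 to 706) CPM, above fibroblast-like cells at 246 and 242 CPM. Mural cells also held Adam12 at 456 and 294 CPM. The mural share with an Adamts12 UMI after thinning was 61.4% and 68.6%, against 0.675% and 1.03% in myeloid cells other than neutrophils.

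Within the fibroblasts, members differed more between clusters than between libraries. A level at least 4-fold higher in the highest than in the lowest of the 6 clusters was found for 13 of 29 members in the Tom positive and 12 of 29 in the Tom negative library, where 15.1% and 14.5% of all features passed the same limit. Clusters were made from the same genes, so this is a description. In Clec3b/Scara5 fibroblasts Adamts5 stood at 595 and 654 CPM, Adamtsl1 at 1025 and 926 CPM and Adamts15 at 192 and 180 CPM. All 3 were lowest in Stra6/Tnc fibroblasts, at 50.3 and 53.2 CPM, 255 and 260 CPM, and 32.9 and 23.3 CPM. Adamts19 (28.2 and 19.2 CPM), Adam22 (54.5 and 42.7 CPM) and, in fibroblasts, Adamtsl4 (28.0 and 37.0 CPM) also peaked in the Clec3b/Scara5 cells. In the Tom negative library Adamts15 of the Hist1h2ap cluster (23.4 CPM) lay level with that of the Stra6/Tnc cluster.

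A second set peaked in Thbs4/Comp fibroblasts, the cluster led by tendon and cartilage matrix genes. Adamts16, an ADAMTS related to Adamts18, was there at 109 and 93.4 CPM, Adamts17, a fibrillin-associated protease, at 93.3 and 107 CPM, and Adamtsl3 at 75.6 and 90.1 CPM. Their levels in Clec3b/Scara5 cells were 10.8 and 15.9, 10.8 and 8.22, and 5.94 and 9.01 CPM, with no overlap of the intervals. Adamts6, which acts on fibrillin microfibrils, was high in both Stra6/Tnc (367 and 378 CPM) and Thbs4/Comp cells (333 and 362 CPM) and lowest in Sfrp4/C7 cells (98.6 and 116 CPM). Adam19, a membrane sheddase, led in Stra6/Tnc cells at 148 and 145 CPM, and so did Adamts12 within fibroblasts, at 390 and 364 CPM. Adamtsl2, which binds microfibrils and latent TGF-beta binding protein, was highest in Sfrp4/C7 cells of the Tom positive library (48.6 CPM) and in Thbs4/Comp cells of the Tom negative library (22.8 CPM). Fibroblast Adam12 was high in Greb1/Cemip (686 and 679 CPM) and Thbs4/Comp cells (682 and 657 CPM) and lowest in Clec3b/Scara5 cells (348 and 274 CPM). Adam23, a cell adhesion protein without the zinc site, and Adam33 were fibroblast genes too, at 64.9 and 58.0 CPM and 30.1 and 23.8 CPM over all fibroblast-like cells.

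**Figure D3:**
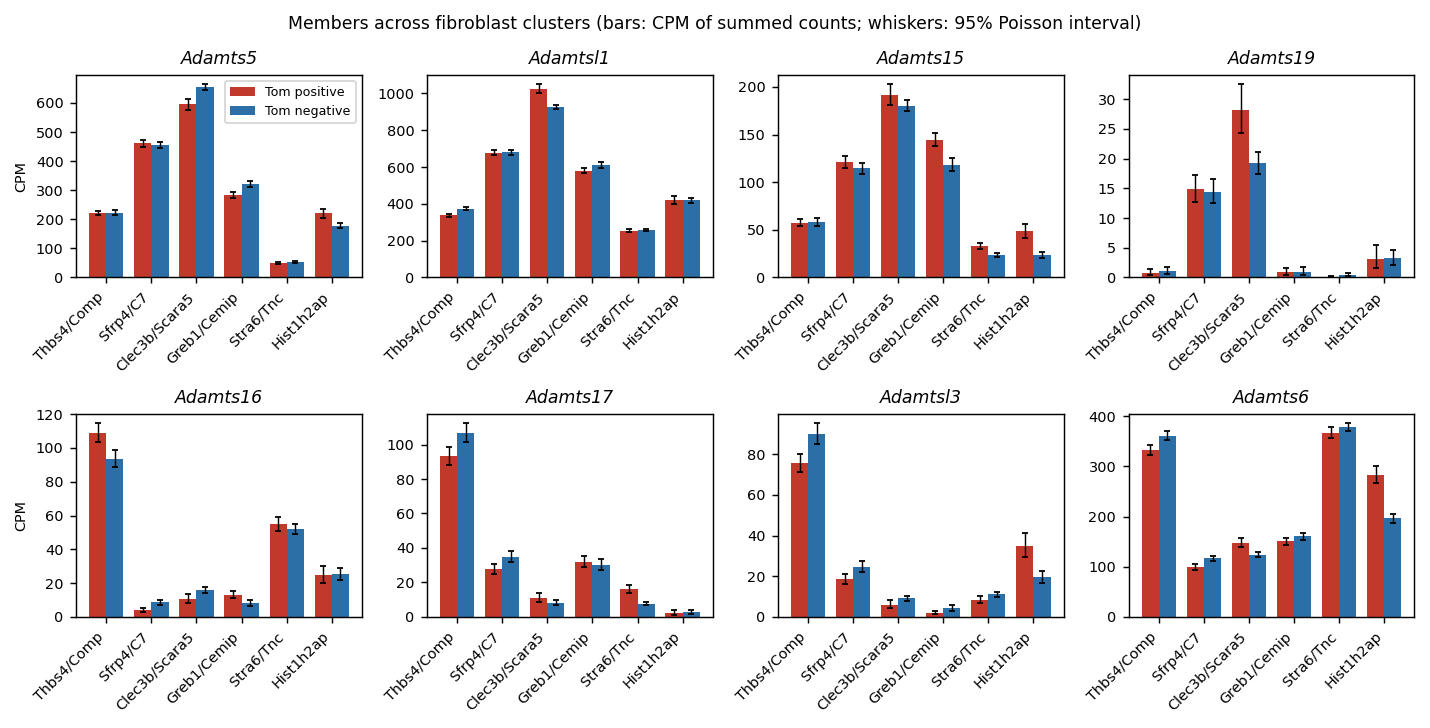
Levels of 8 members across the 6 fibroblast clusters: bars are CPM of summed counts per library on axes from 0, and whiskers are 95% Poisson intervals. Adamts5, Adamtsl1, Adamts15 and Adamts19 are highest in Clec3b/Scara5 cells, Adamts16, Adamts17 and Adamtsl3 in Thbs4/Comp cells, and Adamts6 in Stra6/Tnc and Thbs4/Comp cells.

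Among the sheddases, Adam8, Adam9, Adam15 and Adam17 had their highest levels in myeloid populations, Adam10 in endothelial cells, Adam12 in fibroblasts and Adam19 in Stra6/Tnc fibroblasts. Over all fibroblast-like cells Adam19 was at 89.97 and 97.2 CPM, under lymphatic endothelial-like cells at 131 and 142 CPM. In the Tom negative library the lymphatic interval (107 to 185 CPM) overlapped that of Stra6/Tnc cells (141 to 150 CPM). Adam8, a leukocyte sheddase, stood at 301 (295 to 308) and 253 (248 to 258) CPM in myeloid cells other than neutrophils, at 158 and 219 CPM in neutrophil-like cells and at 3.09 and 4.35 CPM in fibroblast-like cells. It was highest in the Chil3/Cxcl3 cells (452 and 361 CPM) and the Nos2/Mmp12 cells (427 and 402 CPM) and lower, at 171 and 146 CPM, in the Cd163/Folr2 macrophage-like cells. An Adam8 UMI was found in 40.0% and 36.2% of thinned myeloid cells against 0.655% and 1.07% of thinned fibroblast-like cells. The same shares without thinning were 80.9% and 81.6% against 8.70% and 12.2%. Adam15 had another order, with 180 and 146 CPM in Cd163/Folr2, 119 and 112 CPM in Chil3/Cxcl3, 73.6 and 57.0 CPM in Adamdec1/Itgax and 48.2 and 47.3 CPM in Nos2/Mmp12 cells, and its highest level, 271 CPM, in the Retnla/Ear2 cells of the Tom negative library (the Tom positive library held 29 such cells). Adam17, the TNF-converting enzyme, varied little, from 82.5 to 135 CPM over the myeloid populations at or above 30 cells in both libraries. Its highest level was in neutrophil-like cells at 135 and 128 CPM, which also held Adam19 at 129 and 112 CPM. Adam9, a widely expressed sheddase, was at 134 and 125 CPM over fibroblast-like and 125 and 103 CPM over myeloid cells other than neutrophils. It was between 100 and 170 CPM in most fibroblast and macrophage populations and at 34.8 and 33.2 CPM in neutrophil-like cells. Adam28 reached 10 CPM in Tom positive neutrophil-like cells alone, on 14 UMIs, and Adam32 in several populations at levels up to 15.9 CPM. Adam32 begins 0.807 kb beyond the end of Adam9 on the same strand, and how reads running past the end of Adam9 were counted was not tested.

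Fibroblast markers give the level to set beside secreted members in myeloid cells, and whether it comes from free RNA or mixed cells was not tested. The 8 markers were found in myeloid cells other than neutrophils at a median of 1.91% and 2.70% of their fibroblast level, with Pdpn apart at 63.9% and 64.1%. Adamts2 (1.60% and 2.46%), Adam12 (1.86% and 1.86%), Adamts5 (1.46% and 2.31%), Adamtsl1 (1.01% and 1.47%) and Adamts1 (2.11% and 2.28%) lay near that median. Adamts6 did not: it stood at 61.5 and 68.6 CPM, 26.3% and 28.6% of its fibroblast level, and had its highest myeloid level in Adamdec1/Itgax macrophage-like cells at 98.1 and 96.0 CPM. Adamtsl4, which binds fibrillin, was higher in myeloid than in fibroblast-like cells, at 29.9 and 26.1 against 9.10 and 14.4 CPM. Adamtsl5 was at 30.9 and 23.3 CPM in Nos2/Mmp12 cells and at 10.2 and 12.01 CPM in fibroblast-like cells. Adam22, without the zinc site, reached 10.2 and 16.6 CPM in Cd163/Folr2 cells.

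**Figure D4:**
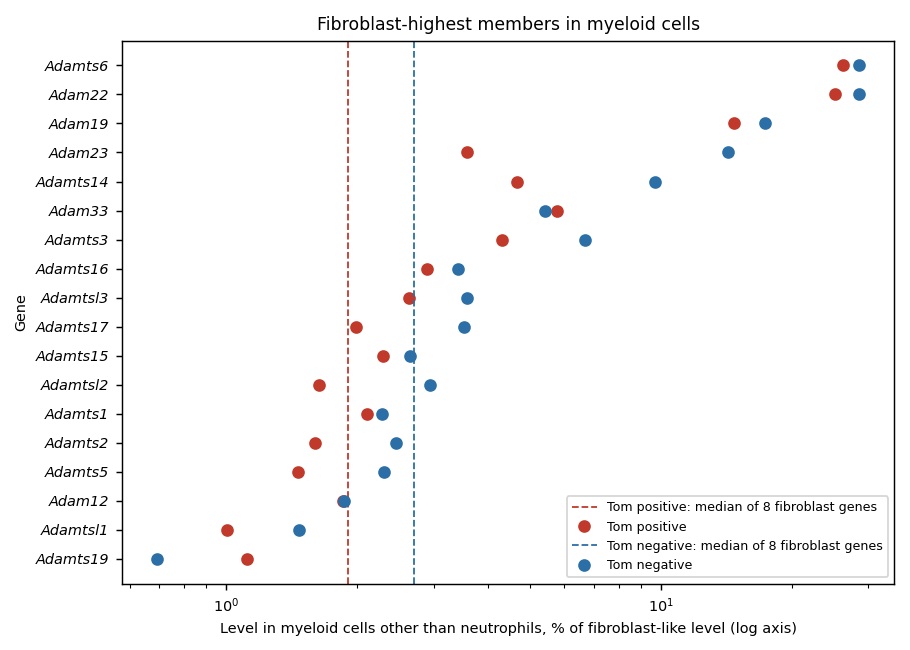
Level of each of the 18 members led by fibroblasts in myeloid cells other than neutrophils, as a percentage of the fibroblast-like level (log axis), for the Tom positive and Tom negative libraries; dashed lines are the median of 8 fibroblast markers, at 1.91% and 2.70%. Adamts6, Adam22 and Adam19 lie well to the right of both lines, and Adamts2, Adam12 and Adamts5 near them.

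Between the libraries, fibroblast-like cells showed few differences among the members. Of 28 members at 10 CPM or more, 1 was higher and 1 lower in the Tom positive library, against 0.841% of features higher and 1.44% lower. Adamtsl2 was the higher one, at 22.2 (21.1 to 23.4) against 9.27 (8.67 to 9.89) CPM, a ratio of 2.40 (2.20 to 2.61). Adamtsl4 was the lower one, at 9.10 (8.37 to 9.89) against 14.4 (13.6 to 15.1) CPM, 1.58-fold lower. The mix of clusters differed between libraries: 184 of 1551 Tom positive but 669 of 2519 Tom negative fibroblast-like cells were Clec3b/Scara5 cells. With the 6 clusters weighted equally, the log2 difference of Adamtsl2 was 0.72 and that of Adamtsl4 was -0.34, against 1.18 and -0.60 as summed. When the Tom positive side was limited to its 282 cells with a tdTomato level of at least 500 CPM, they were 0.06 and -0.18. These 282 cells had another mix, with 83 Clec3b/Scara5 and 85 Stra6/Tnc but 27 Sfrp4/C7 and 29 Thbs4/Comp cells. In the Tom positive library Adamtsl2 stood at 3.81 CPM in Clec3b/Scara5, 1.47 in Stra6/Tnc, 48.6 in Sfrp4/C7 and 32.5 in Thbs4/Comp cells. The part of the mix in this change was not tested. Adamts3 came next at a ratio of 1.49 (1.36 to 1.62), then Adamts17 at 1.35 (1.28 to 1.43), Adam33 at 1.27 (1.19 to 1.35), and Adamts2 at 1.23 (1.22 to 1.25).

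Inside single clusters, Adamts9 differed between the libraries in opposite directions, but without the 3 richest cells none of its differences stayed past 1.5-fold. In Thbs4/Comp cells 2 of 25 members were higher in the Tom positive library (1.1% of features) and 0 lower (1.37%): Adamts1 at 163 against 103 CPM and Adamts9 at 67.8 against 43.2 CPM. In Sfrp4/C7 cells 2 of 25 were higher (2.04%) and 0 lower (2.61%), Adamts3 at 28.4 against 14.4 CPM and Adamtsl2 at 48.6 against 20.1 CPM, and in Greb1/Cemip cells 2 of 24 were higher (0.766%) and 0 lower (1.71%), Adamts3 at 17.1 against 4.96 CPM and Adamts16 at 13 against 8.30 CPM. Adamts9 was lower in Clec3b/Scara5 cells, at 26.3 against 47.2 CPM, as 1 of 26 members (0.986%), with 0 higher (1.21%). It was lower too in Stra6/Tnc cells, at 22.7 against 35.2 CPM, as 1 of 23 members (1.25%), where Adamts17 was higher, at 15.9 against 7.65 CPM (0.964%). In Hist1h2ap fibroblasts 2 of 22 members were higher (3.6%) and 0 lower (3.85%): Adamts15 at 48.5 against 23.4 CPM and Adamtsl3 at 35 against 19.6 CPM. When the 3 cells richest in the gene were left out of the library with the higher level, which can only lower that library's level, 3 of these 11 differences stayed past 1.5-fold: Adamts3 and Adamtsl2 in Sfrp4/C7 cells (23.4 against 14.4 CPM and 42.0 against 20.1 CPM) and Adamts3 in Greb1/Cemip cells (7.64 against 4.96 CPM). Adamts9 then stood at 59.0 against 43.2 CPM in Thbs4/Comp cells and at 26.3 against 36.0 CPM in Clec3b/Scara5 cells, and Adamtsl3 in Hist1h2ap cells turned to 13.1 against 19.6 CPM. Adamts1 in Thbs4/Comp cells came out just under the limit, at 154 against 103 CPM (1.49-fold). It had a UMI in 290 of 367 cells and 6.71% of UMIs in the top 3. Adamts15 in Hist1h2ap cells was at 34.5 against 23.4 CPM (1.47-fold). As for single cells, 3 of 308 cells held 55.9% of the Adamts3 UMIs of Tom positive Greb1/Cemip cells, 3 of 60 held 64.9% of the Adamtsl3 UMIs in Hist1h2ap cells, and 3 of 259 held 37.4% of the Adamts17 UMIs in Stra6/Tnc cells. Adamtsl2 in Sfrp4/C7 cells was spread wider, with 150 of 373 cells holding a UMI and 14.3% of UMIs in the top 3 cells.

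In mural cells, of which the Tom positive library held 47 and the Tom negative library 159, 4 of 23 members were higher in the Tom positive library (9.82% of features) and 2 lower (8.64%). Adamtsl1 was higher at 91.5 (75.1 to 110) against 26.2 (21.6 to 31.6) CPM, and 3 of the 47 cells held 81.5% of its UMIs. Without those 3 cells its level was 19.4 CPM, and in them the fibroblast markers summed to 68038 CPM, against 9198 CPM in the others. Adam23, higher at 11 against 2.13 CPM, had 11 of its 13 UMIs in 3 cells. Adam12 was higher at 456 against 294 CPM, with 28.6% of UMIs in 3 cells and 357 CPM without them, and Adamts15 at 30.5 against 15.6 CPM. Fibroblast markers as a whole stood at a median of 11% of their fibroblast level in Tom positive and 5.86% in Tom negative mural cells, and their part in these differences was not tested. The 2 lower members were Adamts14, at 11.9 against 18.2 CPM, and Adamts17, at 7.62 against 16.1 CPM, both with overlapping Poisson intervals. Without the 3 richest cells of the higher library 1 of the 6 mural differences, Adamts17, stayed past 1.5-fold, and Adamtsl1 and Adam23 (1.91 against 2.13 CPM) came out under the untrimmed Tom negative level. Cells were left out of the higher library alone, so this comparison leans against each difference and does not show a reversed direction. The 4 most abundant Adamts genes of mural cells, Adamts12, Adamts2, Adamts9 and Adamts1, had ratios from 0.967 to 1.16.

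In blood endothelial-like cells 1 of 18 members was higher in the Tom positive library (4.97% of features) and 2 lower (8.34%). Adamts18 was higher at 29.4 (27 to 32) against 13.5 (9.72 to 18.2) CPM, a ratio of 2.18 (1.59 to 3.06), and 2.07 without doubted barcodes. Within the finer clusters its levels were those given above, 48.8 against 51.3 CPM in the Selp cluster and 1.51 against 0.486 CPM in the Gpihbp1 cluster. The Selp cluster held 311 of the 509 Tom positive but 43 of the 237 Tom negative cells, and the Gpihbp1 cluster 154 and 74. Adamts9 had a ratio of 1.43 (1.38 to 1.48), and with trimmed-mean (TMM) scaling its log2 difference was 0.59, past 1.5-fold. Within each of the finer clusters its CPM, given above, lay under 1.43-fold apart. The Selp cluster, where Adamts9 was higher, made up a larger share of the Tom positive than of the Tom negative cells. The part of that mix in the summed ratio was not tested. Adamts2 was lower at 14.8 against 38.2 CPM, but 3 of 237 Tom negative cells held 62.2% of its UMIs. In those 3 cells fibroblast markers summed to 31623 CPM, against 1470.5 CPM in the others, and over the whole population the markers stood at a median of 1.52% and 5.49% of their fibroblast level. Adam19 was lower at 46.9 (43.8 to 50.2) against 79.0 (69.5 to 89.5) CPM, with 77 of 237 Tom negative cells holding a UMI and 13.8% of UMIs in 3 cells.

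In myeloid cells other than neutrophils 1 of 10 members was higher (1.12% of features) and none lower (1.33%). It was Adamtsl5, at 14.3 (12.9 to 15.8) against 8.02 (7.17 to 8.95) CPM, a ratio of 1.78 (1.53 to 2.07), with UMIs in 249 of 1361 Tom positive cells. Adam8, Adam9, Adam10 and Adam15 had ratios of 1.19, 1.21, 1.14 and 1.14, with counting intervals above 1, and Adam17 of 1.01 (0.961 to 1.06). With the Tom positive side limited in the same way, to 1012 cells, the log2 difference of Adamtsl5 was 0.85 and that of Adam8 was 0.27. The mix differed here too: 195 of 1361 Tom positive but 545 of 1882 Tom negative cells were dendritic-like. Adamtsl5 stood at 3.96 and 3.23 CPM in these, 18.8 and 10.8 CPM in Chil3/Cxcl3 and 30.9 and 23.3 CPM in Nos2/Mmp12 cells. Adam8 stood at 220 and 215, 452 and 361, and 427 and 402 CPM in the same 3 populations. The part of the mix in the summed ratios was not tested. Among the single myeloid populations, few members were past 1.5-fold. In Chil3/Cxcl3 cells 1 of 9 was higher, Adamtsl5 (2.32%), and 0 lower (2.07%). Adam22 was the 1 lower member of 10 in Cd163/Folr2 cells (1.82%, with 2.61% higher) and of 10 in Adamdec1/Itgax cells (4.24%, with 4.5% higher). In Nos2/Mmp12 cells 0 of 11 were higher (2.19%) and 3 lower (3.34%), namely Adam12, Adamts2 and Adamtsl1, with 39.2% to 50.8% of their Tom negative UMIs in 3 of 281 cells. In those cells fibroblast markers summed to 28104 CPM (Adam12), 33612 CPM (Adamts2) and 29805 CPM (Adamtsl1), against 1728 to 1792 CPM in the others, and without them none of the 3 was past 1.5-fold. In Hist1h2ap macrophage-like cells 1 of 10 was higher, Adam32 (4.03%), and 1 lower, Adamts2 (4.02%). In dendritic-like cells 2 of 13 were higher, Adam12 and Adamts12 (2.1%), with 71.0% and 67.8% of their Tom positive UMIs in 3 of 195 cells, and 2 were lower, Adam19 and Adam23 (2.34%). Fibroblast markers summed to 29505 CPM in the 3 cells richest in Adam12 and 30485 CPM in those richest in Adamts12, against 1467 and 1257 CPM in the others. Without those cells Adam12 was at 7.33 against 7.01 CPM and Adamts12 at 4.52 against 4.33 CPM. Adam22 in Cd163/Folr2 and Adamdec1/Itgax cells and Adam32 and Adamts2 in Hist1h2ap cells also fell under 1.5-fold without 3 cells, while Adamtsl5 in Chil3/Cxcl3 and Adam19 and Adam23 in dendritic-like cells stayed past it. Adam23 there stood at 9.07 against 26.8 CPM and was spread over 50 of 545 Tom negative cells, with 19.6 CPM left when the 3 richest were taken out.

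In lymphatic endothelial-like cells 4 of 19 members were higher (15.9%), namely Adamts5, Adamts10, Adamtsl1 and Adamtsl2, and 6 lower (16%), but 21 of the 33 Tom negative cells are doubted and fibroblast markers stood there at a median of 24.7% of their fibroblast level, against 2.30% in Tom positive cells. In neutrophil-like cells 4 of 16 were higher (37.9%), namely Adam12, Adam28, Adamts6 and Adamts9 on 12 to 31 Tom positive UMIs each, and 0 lower (6.04%), with a median log2 difference over all features of 0.38.

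**Figure D5:**
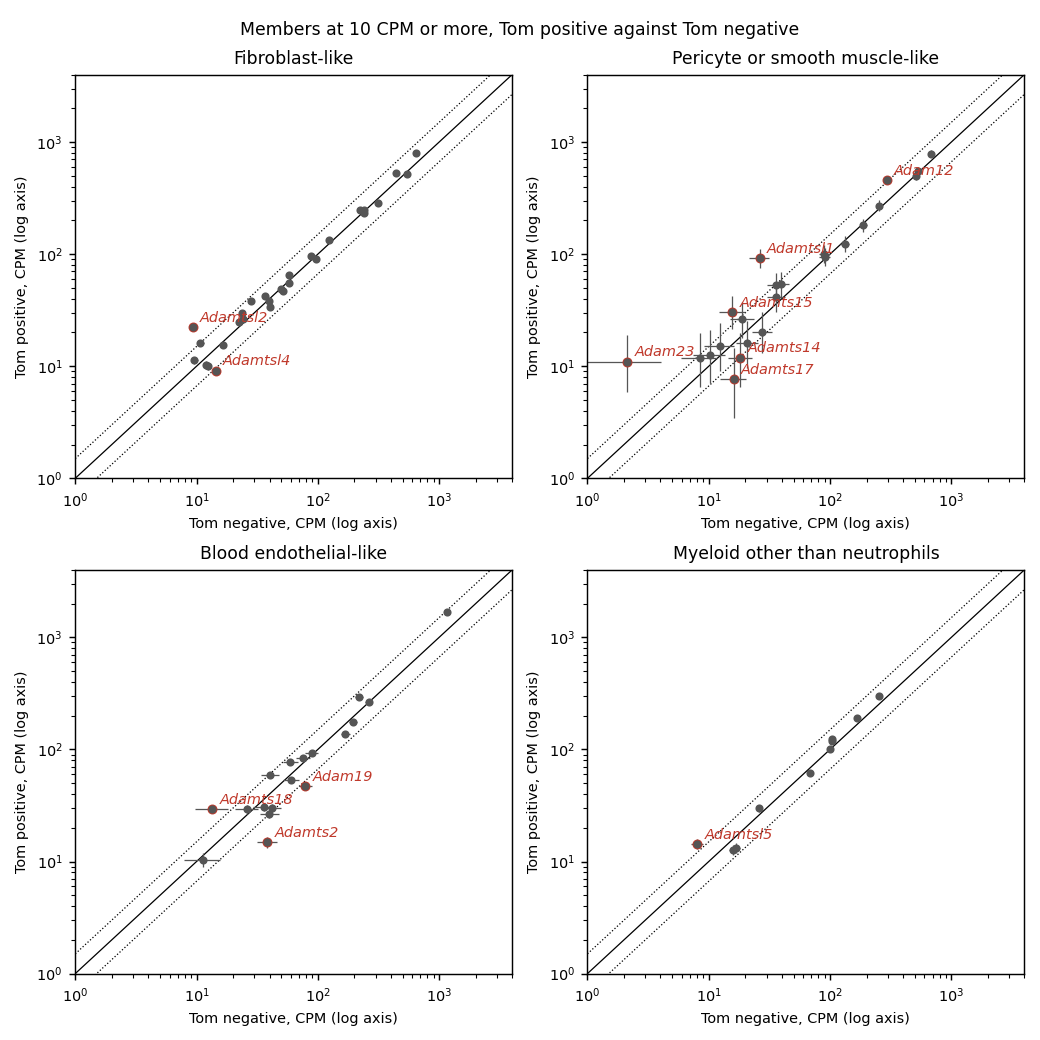
Members at 10 CPM or more in either library, Tom positive against Tom negative CPM (both axes log), in 4 cell classes; points are CPM of summed counts, bars 95% Poisson intervals, the solid line marks equality, dotted lines 1.5-fold, and members past 1.5-fold are named in red. Most points lie between the dotted lines, with Adamtsl2 and Adamtsl4 past them in fibroblast-like cells and Adamts18 in blood endothelial-like cells.

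Inhibitors and partners of the family came from lists. Timp3, the inhibitor of several ADAM and ADAMTS proteases, stood highest in lymphatic endothelial-like (812 and 1016 CPM), mural (854 and 654 CPM) and blood endothelial-like cells (552 and 388 CPM), at 222 and 252 CPM in fibroblast-like and at 7.98 and 8.92 CPM in myeloid cells other than neutrophils. Timp1 led in fibroblast-like cells at 1594 and 1886 CPM. Of the 4 inhibitor genes tested in blood endothelial-like cells, 2 were higher in the Tom positive library, Timp2 at 154 against 103 CPM and Timp4 at 12.05 against 7.39 CPM (list median log2 difference 0.54, all features -0.03), beside 4.97% of features higher and 8.34% lower. In mural cells 1 of 4, Reck, was higher at 28.8 against 10.9 CPM (9.82% of features), and in myeloid cells other than neutrophils 1 of 2, Timp1, was lower at 67.9 against 104 CPM (1.33%). None of 4 was past 1.5-fold in fibroblast-like cells (median -0.05, all features -0.03). Rhbdf2, the partner that brings Adam17 to the cell surface in immune cells, was at 57.3 and 58.2 CPM in myeloid and 8.51 and 11 CPM in fibroblast-like cells, and its relative Rhbdf1 the reverse, at 1.70 and 1.42 against 30.2 and 32.6 CPM. Furin, which activates many ADAM and ADAMTS proteins, was at 430 and 429 CPM in myeloid cells, and Pcsk5, another convertase, at 1962 and 1900 CPM in fibroblast-like cells. Tspan14 and Tspan15, which guide Adam10, were at 159 and 156 CPM and 94.8 and 84.5 CPM in blood endothelial-like cells, while Tspan15 was at 0.340 and 0.400 CPM in fibroblast-like cells.

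Few shed or matrix substrates were past 1.5-fold in fibroblast-like cells or in myeloid cells other than neutrophils. Of 19 shed substrates tested in fibroblast-like cells 0 were past 1.5-fold (median log2 difference -0.12, all features -0.03). In myeloid cells other than neutrophils 1 of 17, Areg, was lower, at 28.9 against 46.6 CPM (median 0.11, all features 0.02), beside 1.33% of features lower. In fibroblast-like cells 0 of 9 matrix substrates were past 1.5-fold, and of 16 fibrillin microfibril genes Ltbp4 was higher, at 99.5 against 64.2 CPM, while Ltbp1 was lower, at 53.9 against 97.5 CPM, and Efemp1 at 80.8 against 129 CPM (median 0.09, all features -0.03; 0.841% of features higher and 1.44% lower). Ltbp1 and Efemp1 were highest in Clec3b/Scara5 cells, of which the Tom negative library held the larger share. Within these they stood at 239 against 281 CPM and 346 against 377 CPM. Ltbp1 was at 74.1 against 112 CPM in Sfrp4/C7, 30.9 against 42.3 CPM in Thbs4/Comp and 19.7 against 26.9 CPM in Greb1/Cemip cells. In Stra6/Tnc and Hist1h2ap cells it was at 6.28 against 11.5 CPM and 21.7 against 47.0 CPM. Efemp1 was at 137 against 163 CPM in Sfrp4/C7 and 44.1 against 58.2 CPM in Greb1/Cemip cells. In Thbs4/Comp and Stra6/Tnc cells it was at 22.3 against 41.9 CPM and 4.41 against 10.6 CPM. What part the mix has was not tested. In blood endothelial-like cells 6 of 9 matrix substrates were lower (8.34% of features), among them Col1a1 at 348 against 837 CPM, beside the fibroblast marker levels given above, and Vwf, the substrate of Adamts13, was higher at 407 against 254 CPM (list median -1.27, all features -0.03). In the same cells 8 of 14 microfibril genes were lower and 1 higher, and 4 of 19 shed substrates lower and 1 higher, beside 8.34% of features lower and 4.97% higher. In mural cells 4 of 9 matrix substrates were higher (9.82% of features), namely Acan, Col1a1, Col1a2 and Col3a1, and none lower. Acan stood at 12.7 against 3.54 CPM, in 47 Tom positive cells. Col1a1, Col1a2 and Col3a1 are themselves fibroblast markers, and these stood in mural cells at a median of 11% and 5.86% of their fibroblast level. What part that has in the count was not tested. Adamts13 itself stayed under 10 CPM in all populations.

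Across 33 columns of population and library, correlations of log2(CPM + 1) over 7033 genes are given as a description only, since the columns share 2 libraries and differ in depth. Adamts2 ran closest to Slit3 and Prrx1 (r = 0.990) and Col5a1 (0.989), Adam8 to Itgam (0.987), and Adamts9 to Hecw2 (0.954) and Meox2 (0.949). Adamts5 lay close to Adamtsl1 (0.969) and Prelp (0.971), and Adamts12 to Adam12 (0.956) and Gpc4 (0.975). Adamts1 and Adamts5 lie 53.1 kb apart on chromosome 16, and the member nearest to Adamts1 was not Adamts5 but Adam12 (0.948). The 3′ ends of Adam15, Adam17, Adam19, Adamts7 and Adamts16 overlap a gene on the opposite strand (4731419I09Rik, Iah1, Gm16033, Tbc1d2b and Gm36607), and whether strand was used in counting is not given in the sources used here.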

How the data were processed

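Single-cell RNA of tdTomato-positive and tdTomato-negative stromal cells of mouse tumours was measured in 1 library per group. The deposited values are whole-number UMI counts per gene and cell barcode, which the authors obtained by running Cell Ranger 7.0.1; the submitters' processing notes give mm10 as the genome build. How cells were called, and whether intronic reads or strand were counted, is not given in the sources used here.

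The files held 7568 and 13604 barcodes with 128275546 and 164646314 UMIs (Tom positive and Tom negative). Cells with at least 500 genes, 1000 UMIs and at most 10% mitochondrial UMIs were kept, and Scrublet (scanpy 1.11.5) calls, 63 and 97, were removed, which left 4302 and 6580 cells with median depths of 24191 and 20610.5 UMIs. Both libraries held 3660 of the same barcodes, and 234 and 1233 kept cells are doubted because the other library had over 5 times the UMIs, or both had under 5000. Normalized counts (10000 per cell), 2000 variable genes, 30 components, 15 neighbours and Leiden resolution 1 (leidenalg 0.10.2) gave the clusters, which were named where at least 3 markers of a class reached 50 CPM and no other class had more markers among the 10 leading genes. Counts were summed per library and population and given as CPM, and intervals are exact Poisson, conditional binomial (ratios) and Clopper-Pearson (shares), at 95%. They hold counting error only. Log2 differences carry a pseudocount of 1 CPM. A library of a population was used from 30 cells, and a difference was read for members at 10 CPM or more in either library. Kits of this type count 1 tag near the 3′ end of a transcript, so CPM was not divided by gene length.

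There being 1 library per group, no test between groups was run. The scripts were tested on simulated data. All members were taken by symbol, every member at 10 CPM or more is named and those at 50 CPM or more get their values, and listed genes were taken by their levels. Members and gene lists were chosen with earlier results of these data known, and the division of UMIs over cells, and the levels without the 3 richest cells, were looked at after values were seen. Alternatives changed cell filters, doublets, doubted barcodes, clustering, scaling (edgeR 4.0.16 TMM factors), the pseudocount, the minimum level and the fold. Zinc-site codons came from GENCODE M21 transcripts, whose annotation held 30934 of the 31054 feature IDs.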

Additional observations from a re-analysis of the deposited data

Results flagged for a closer look

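In 5 genes, 2 populations differed in opposite directions between the libraries, each by 1.5-fold or more. These differences were not tested, and the gap is the distance between the 2 log2 differences. In Tom positive cells Adamts9 was higher among Thbs4/Comp fibroblasts (67.8 against 43.2 CPM) and lower in Clec3b/Scara5 fibroblasts (26.3 against 47.2 CPM), a gap of 1.49. Adamts17 was higher in Stra6/Tnc fibroblasts (15.9 against 7.65 CPM) and lower in mural cells (7.62 against 16.1 CPM), a gap of 2.13. Adam12 was higher in dendritic-like cells (24.9 against 7.01 CPM) and lower in Nos2/Mmp12 myeloid cells (8.11 against 14.6 CPM), a gap of 2.67. Adamtsl1 was higher in mural cells (91.5 against 26.2 CPM) and lower in Nos2/Mmp12 myeloid cells (4.05 against 11.1 CPM), a gap of 3.26. Adam23 was higher in mural cells (11 against 2.13 CPM) and lower in dendritic-like cells (9.07 against 26.8 CPM), a gap of 3.94. Without the 3 richest cells of the library with the higher level, Adamts9 was at 59.0 against 43.2 CPM and 26.3 against 36.0 CPM, both under 1.5-fold, and Adamts17 at 10.1 against 7.65 CPM in Stra6/Tnc fibroblasts, under it, and 7.62 against 12.5 CPM in mural cells. For Adam12, Adamtsl1 and Adam23 the 3 richest cells held between 27.5% and 84.6% of the UMIs of that library. In those of Adam12 fibroblast markers summed to 29505 CPM (dendritic-like) and 28104 CPM (Nos2/Mmp12), against 1467 and 1792 CPM in the others, and without them its levels were 7.33 against 7.01 CPM and 8.11 against 7.72 CPM.

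A signal appeared for 2 genes in clusters outside the 17 populations. Adamts14, a procollagen N-propeptidase, stood at 76.6 CPM (35 UMIs in 12 of 39 cells, at most 6 in a cell) in the T or NK-like cluster of the Tom positive library and at 43.8 CPM (12 UMIs in 4 of 14 cells) in that of the Tom negative library, above its highest level of 20.9 CPM in the populations. The fibroblast markers stood there at a median of 8.54% and 18.2% of their fibroblast level. Adamts5 stood at 924 CPM (171 UMIs in 89 of 156 cells) in an unnamed cluster of the Tom negative library, of whose cells 138 are doubted.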

How the results depend on the processing

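As summed, 2 members were 1.5-fold or more apart in fibroblast-like, 6 in mural, 3 in blood endothelial-like and 1 in other myeloid cells than neutrophils. With Tom positive cells limited to those at 500 CPM of tdTomato or more, the numbers were 1, 12 and 13 in fibroblast-like, mural and blood endothelial-like cells, but only 3 mural and 30 blood endothelial-like cells remained. There the log2 differences of 3 mural members reversed, to -0.62 for Adam12, -1.64 for Adam23 and -4.05 for Adamts15. A mitochondrial limit of 5% gave 10 mural and 3 myeloid members. The mean of CPM per cell gave 6 and TMM scaling 5 members in blood endothelial-like cells, Adamts6 (0.61) and Adamts9 (0.59) being added under TMM scaling. Weighting the fibroblast clusters equally left 1 member. With no minimum level the numbers were 12, 23, 28 and 18, and with a limit of 2-fold 1 in fibroblast-like, 3 in mural and 0 in myeloid cells. Clustering at resolution 0.5 put 4 members highest in mural and 4 in myeloid populations, against 2 and 8, and resolution 2 put 4 in mural populations. Leaving out the 3 richest cells of the higher library, an alternative chosen after seeing the data, left 2, 1, 2 and 1 members. The cause of these changes was not tested. Of 51 log2 differences followed, 12 of them past 1.5-fold, all 51 moved by less than their counting interval when doubted barcodes were left out. No paired analysis was possible because each group has 1 library. With 1 library per group the spread between animals is unknown, and levels near 10 CPM in populations under 100 cells rest on few UMIs.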

Other observations

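Mast-like cells of the Tom positive library held Adamts9 at 375 CPM, on 81 UMIs in 31 cells, where endothelial markers stood at a median of 0.699% of their blood endothelial level and fibroblast markers at 16.8% of their fibroblast level.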
